A study of Arabidopsis thaliana with 24 samples.

Results

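The effect of losing RGLG1 and RGLG2 on transcripts of iron-supplied Arabidopsis thaliana was compared between leaves and roots. The comparison rests on the 12 arrays of plants grown with iron, out of 24 arrays in the series, chosen by sample title. They fall into 4 groups of 3 arrays each, which are leaves of wild type (Col), leaves of the rglg1 rglg2 double mutant (labelled rglg1/2 and called the mutant here), roots of Col and roots of the mutant. The quantity tested was the leaf effect (mutant minus Col in leaves) minus the root effect (mutant minus Col in roots), called the leaf-root difference below. These plants, kept at 21 °C in continuous light, were 10 days old when they received medium containing 40 µM FeEDTA (+Fe), and RNA was taken 3 days later, at 13 days. The other 12 arrays come from the same 4 groups on medium with 100 µM of an iron chelator (-Fe), and they took no part in defining any class of genes described here. RNA of leaves and of roots was hybridised to ATH1 arrays, and the labels call the arrays of a group biological replicates. The labels name no mutant allele or line, and all 6 mutant arrays carry both mutations, so the separate roles of the genes cannot be told apart.

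RGLG1 and RGLG2 are RING-domain ubiquitin ligases of plant cells. Such enzymes attach ubiquitin to chosen proteins, either marking them for breakdown or, through chains linked at another lysine, changing their activity or location. In Arabidopsis, RGLG1 and RGLG2 have been tied to root hair formation under low iron, to shoot branching and to drought and abscisic acid responses. A leaf and a root are built of different cell types and express different genes, so a mutation can act on the same genes in both organs, on genes of 1 organ, or in opposite directions. In RNA from bulk tissue, a lower signal can mean fewer cells of a type or less RNA per cell, and these cannot be told apart. The loss of RGLG1 and RGLG2 transcripts could not be checked, because 0 of the probe sets named here measure either gene.

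Values are log2 signals centred by the median of each probe set, so a value of 0 is the middle of the 24 arrays for that probe set, and levels cannot be compared between genes. Of 17854 probe sets, 17810 were tested, and 9869 of these carry the name of a single gene. The labelled tissues were checked against defining markers. The mean of 10 photosynthesis genes was 2.56 ± 0.06 (SD, n = 3) in Col leaves and 2.45 ± 0.02 in mutant leaves, against -2.09 ± 0.12 and -2.09 ± 0.03 in Col and mutant roots. The mean of the 3 measured root markers (PYK10, EXPA7 and EXPA18) was -2.19 ± 0.14 and -2.12 ± 0.19 in Col and mutant leaves, against 1.88 ± 0.1 and 2.04 ± 0.07 in the roots. Of these markers, PYK10 was higher in mutant leaves (log2 0.57 ± 0.16, SE, adjusted p = 0.0182 by the limma fit described below), with overlapping arrays, and its part in the leaf results was not tested. The difference between 5′ and 3′ control probe sets, a sign of RNA quality, was 0.2 ± 0.1 in Col roots and 0.01 ± 0.14 in mutant roots, and 0.06 ± 0.06 and 0.01 ± 0.1 in Col and mutant leaves. Its part in the root results was not tested.

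Array 3 of the mutant leaves stood apart from its group. It correlated with arrays 1 and 2 at r = 0.88 and 0.905 across probe sets, while those correlated at 0.967 with each other. On the first axis of variation among the 6 leaf arrays (66.9% of variance) it lay at 4.68, between the other mutant arrays (46.4 and 40.2) and the Col arrays (-36.3, -33.9 and -21.1). Array 3 of the mutant roots lay likewise at 5.3 on the first root axis (51.8% of variance), with the other mutant roots at 23.9 and 24.4 and the Col roots at -22.5, -18.5 and -12.5. The counts of calls and classes are therefore given with and without these arrays. Some list counts are given in the same way, and others also changed when either array was left out.

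The genotype effect was called more often in leaves than in roots, and few probe sets were called in both organs, although the size of this gap depended on the fit. With a limma fit over the 12 arrays and Benjamini-Hochberg adjustment, called at an adjusted p under 0.05, 4454 probe sets differed between mutant and Col in leaves (25% of those tested), 2336 of them higher (13.1%) and 2118 lower (11.9%) in the mutant. In roots 446 differed (2.5%), with 250 higher (1.4%) and 196 lower (1.1%). Fits of each organ's own 6 arrays gave 2809 leaf and 812 root calls, fits of each organ's 12 arrays on both media 2557 and 1913, and array weights 8323 and 5461, with 1397 shared. The leaf-root difference itself was called for 2326 probe sets (13.1%), 1203 with a leaf effect above the root effect (6.75%) and 1123 with a leaf effect below it (6.31%). The SD of the log2 effects over all probe sets was 0.46 in leaves and 0.27 in roots. A log2 effect of at least 1 in size was reached by 930 probe sets in leaves and by 132 in roots. Across the 17810 probe sets, which are not independent, the leaf and root effects correlated at r = 0.18 (Spearman rho = 0.11), from separate arrays.

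**Figure D1:**
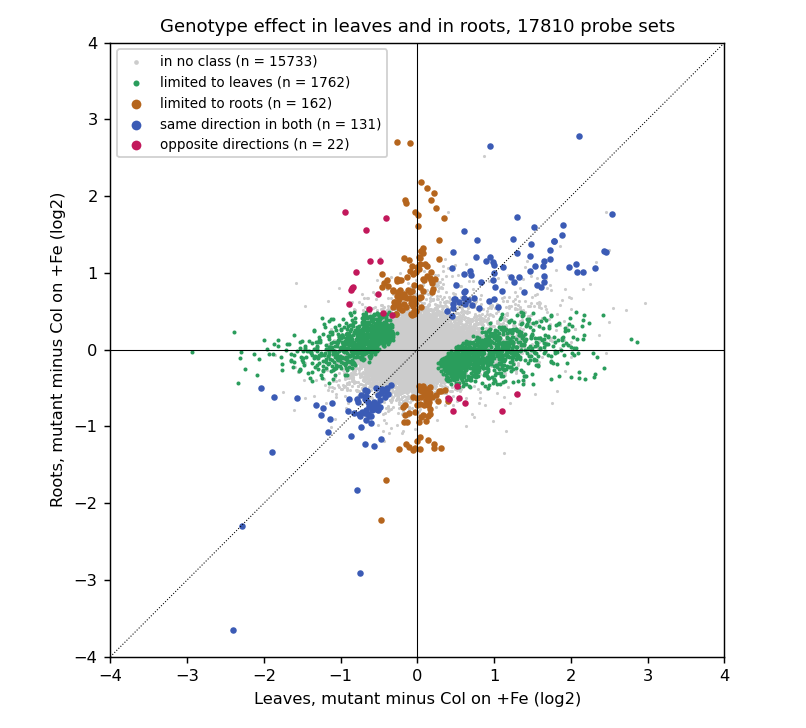
Each point is a probe set, with its leaf effect on the x axis and its root effect on the y axis (mutant minus Col on +Fe, log2; means of 3 arrays per group), coloured by class. The cloud is wider along the leaf axis (SD 0.46) than along the root axis (0.27), the 131 probe sets called in the same direction lie on both sides of the dotted line of equal effects, 16 of them with a called difference, and 1762 lie along the leaf axis near a root effect of 0.

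The calls were sorted into 4 classes. Shared effects, called in both organs in the same direction, numbered 131 (71 higher and 60 lower in the mutant), which is 2.94% of the leaf calls and 29.4% of the root calls. For 16 of the 131 the leaf-root difference was called as well, so these shared a direction but not a size. Opposite effects, called in both organs in opposite directions, numbered 22, of which 14 were lower in mutant leaves and higher in mutant roots. A leaf-limited effect was one with the leaf effect and the leaf-root difference called, and with the root effect not called and under 0.5 in size on the log2 scale. There were 1762 of these (9.89% of all probe sets), 975 higher and 787 lower in mutant leaves. The corresponding root-limited class held 162 probe sets (0.91%), 103 higher and 59 lower in mutant roots. A call in 1 organ alone was not enough. Of 4301 probe sets called in leaves and not in roots, 2488 did not have a called leaf-root difference, and the same held for 131 of the 293 called in roots and not in leaves. The leaf-root difference was called for a further 313 probe sets with a call in neither organ.

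All of these counts moved with single arrays, and more so in the small classes. Without leaf mutant array 3 the leaf calls rose to 6051, the root calls to 831 and the called leaf-root differences to 4160, and the classes grew to 272 shared, 91 opposite, 3276 leaf-limited and 250 root-limited. Without root mutant array 3 the root calls rose to 1034, with 203 shared, 88 opposite and 395 root-limited probe sets. Leaving out arrays 1 or 2 lowered most counts. Without root Col array 1 or 2 or root mutant array 1 or 2, the root calls were 127, 218, 124 and 157, the called leaf-root differences 1217, 1194, 1155 and 1274, and the shared class held 41, 68, 44 and 50. The leaf-limited class then held 987, 933, 950 and 1028, the root-limited class 50, 86, 55 and 68, and the opposite class 8, 11, 5 and 10. Without leaf Col array 2 or leaf mutant array 1 or 2, the leaf calls were 3200, 2805 and 2742, the called leaf-root differences 1348, 1378 and 1295, and the leaf-limited class 1017, 1016 and 969. Without leaf Col array 2 the shared, opposite and root-limited classes held 87, 14 and 102, and without leaf mutant array 2 the last of these also held 102 and the opposite class 13. Leaf calls outnumbered root calls in each of the 12 refits, at 4513 against 1034 without root mutant array 3.

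**Figure D2:**
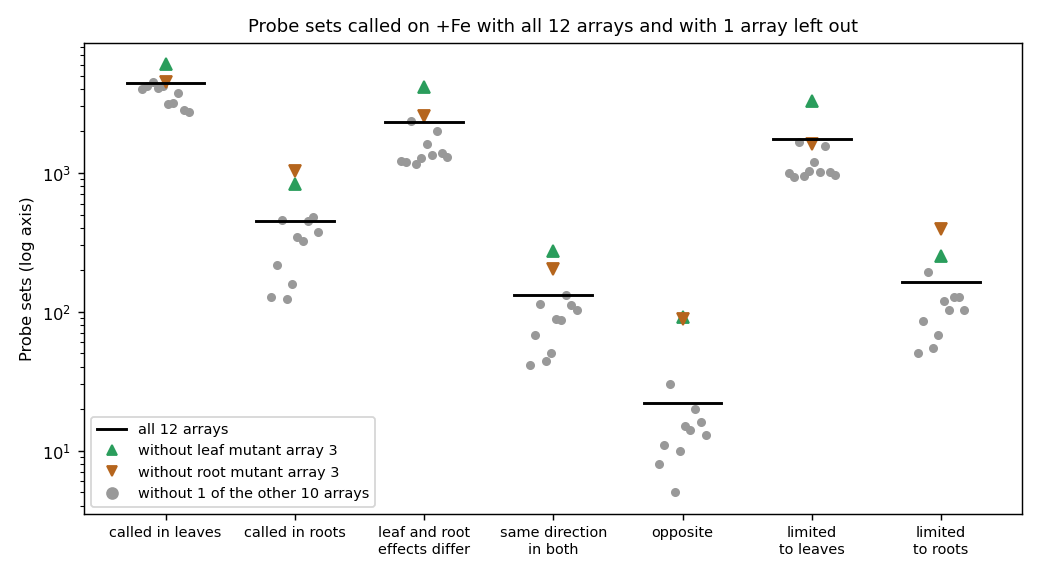
Number of probe sets called on +Fe (log axis) in leaves, in roots and for the leaf-root difference, and in each class, with all 12 arrays (horizontal lines) and with 1 array left out (points). Without leaf mutant array 3 (upward triangles) the leaf-limited class grew from 1762 to 3276, and without root mutant array 3 (downward triangles) the root-limited class grew from 162 to 395.

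The genes higher in mutant leaves alone included many known only by locus code, given further on, and several with a known role. XTH19, an enzyme that cuts and rejoins xyloglucan in cell walls, had values of -3.64, -3.28 and -2.69 in Col leaves and of -0.9, -1.0 and -0.75 in mutant leaves. In roots it lay at 1.24, 1.13 and 1.27 in Col and at 0.78, 1.0 and 0.9 in the mutant. The leaf arrays did not overlap and the mutant leaves came nearer to the level of roots, where the order of the genotypes was reversed but not called. The leaf effect was 2.32 ± 0.18 (SE, 4.99-fold, adjusted p = 8.26e-06), the root effect -0.32 ± 0.18 (adjusted p = 0.383), and the leaf-root difference 2.64 ± 0.26 (adjusted p = 0.00022).

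CYP71B36, a cytochrome P450 gene, lay at 1.22, 1.21 and 1.35 in Col leaves and at 3.14, 3.12 and 3.0 in mutant leaves. Its root values were -1.36, -1.2 and -1.14 in Col and -1.05, -1.38 and -1.35 in the mutant. Mutant leaves were thus set apart from the other 3 groups, and the root groups overlapped. The leaf effect was 1.82 ± 0.11 (3.54-fold) and the leaf-root difference 1.85 ± 0.16 (adjusted p = 0.000107). GLR2.7, which encodes a glutamate receptor-like ion channel, lay at 0.9, 1.27 and 1.64 in Col leaves and 3.17, 3.18 and 2.89 in mutant leaves. Its roots lay at -0.87, -1.34 and -0.91 in Col and -1.09, -1.17 and -1.42 in the mutant. The leaf groups were separate by over 1 unit and the root groups overlapped, with a leaf-root difference of 2.0 ± 0.26 (adjusted p = 0.00107). WRKY47, a WRKY transcription factor gene, lay at -0.72, -0.56 and -0.74 in Col leaves and 0.87, 0.74 and 0.54 in mutant leaves. Its 6 root arrays lay between -0.18 and 0.11, and the leaf-root difference was 1.33 ± 0.16 (adjusted p = 0.000838).

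Further genes of 3 families were higher in mutant leaves, while other members were not called. The families of glutamate receptor-like channels and CYP71B enzymes were listed after their values had been seen, and the others with earlier results of these data known. Of 7 glutamate receptor-like genes, 4 rose in mutant leaves and none fell, against 13.1% of all probe sets higher in leaves. None was called in roots. With 2.5% of all probe sets called there, lists of this size need hold no root call. The uncalled members were GLR3.3, GLR3.5 and GLR3.6, with leaf effects of -0.06, -0.09 and -0.33, and 1 of the 7 was called lower without leaf mutant array 3. The leaf-root difference was called for GLR2.7, GLR1.4 (1.29 ± 0.17) and GLR2.8 (1.03 ± 0.23). Of 67 listed WRKY genes, 5 were measured. WRKY53, WRKY47 and WRKY6 rose in leaves, WRKY20 and WRKY22 had leaf effects of -0.04 and -0.28, and none was called in roots. The leaf-root difference was called for WRKY47 and WRKY6 (1.06 ± 0.18), a regulator of senescence and pathogen responses, but not for WRKY53 (1.24 ± 0.44, adjusted p = 0.0786). Of 8 U-box ubiquitin ligases, PUB23, PUB24 and PUB43 rose in leaves, the other 5 had leaf effects between -0.23 and 0.73, and none was called in roots. PUB23 and PUB24 are known to dampen immune signalling. The leaf-root difference was called for PUB24 (1.15 ± 0.22) and PUB43 (0.83 ± 0.19), and it was 1.71 ± 0.56 for PUB23 (adjusted p = 0.0616). Without leaf mutant array 3, the leaf-root differences called higher numbered 4 of 7, 3 of 5 and 5 of 8 in these lists. RGLG5, a measured relative of the mutated genes, was higher in mutant leaves (0.75 ± 0.14, adjusted p = 0.00164) and had a root effect of 0.25 ± 0.14, and the leaf-root difference of 0.5 ± 0.19 was not called (adjusted p = 0.0977) except without leaf mutant array 3.

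The 40 UDP-glycosyltransferases, which attach sugars to hormones, defence compounds and pigments, gave 13 genes higher and 2 lower in mutant leaves, and 1 higher in roots. Over all probe sets 13.1% were higher and 11.9% lower in leaves. The leaf-root difference was called positive for 6 of the 40 and negative for 3, against 6.75% and 6.31% of all probe sets, so the negative share was near that of all probe sets. UGT87A2 lay at 0.01, 0.29 and 0.7 in Col leaves and at 2.08, 2.1 and 1.39 in mutant leaves. Its 6 root arrays lay between -0.24 and -0.01, and the leaf-root difference was 1.57 ± 0.27 (adjusted p = 0.00435). UGT73B5 (1.51 ± 0.23) and UGT76B1 (1.09 ± 0.21), which glucosylates immune signal molecules, had differences in the same direction. UGT85A5 went the other way, with a leaf effect of -0.84 ± 0.15 and a difference of -0.94 ± 0.21. UGT76E12 had a leaf effect of 2.02 ± 0.44 and a difference of 1.99 ± 0.62 that missed the threshold (adjusted p = 0.0508), with mutant leaf array 3 at 1.24, within the range of Col, and the other mutant leaves at 2.57 and 3.4. Without that array 13 positive differences were called in this list, and 14 genes were higher and 4 lower in leaves.

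Of the 10 named genes with the most positive leaf-root differences, 9 were leaf-limited. AT1G13470 lay at 1.74, 1.69 and 1.3 in Col leaves and at 3.81, 3.63 and 3.44 in mutant leaves, and its root arrays lay between -1.55 and -1.38. The genotypes were separate in leaves and overlapped in roots, with a difference of 2.11 ± 0.19 (adjusted p = 0.000107). AT3G01830 and AT3G48650 had the largest differences of the named genes (2.75 ± 0.68 and 2.67 ± 0.67), yet their calls were lost in some refits. For AT3G01830 these were the refits without root Col array 1 or 2, leaf Col array 2 or leaf mutant array 2, and for AT3G48650 those without root mutant array 2, leaf Col array 2 or leaf mutant array 2. In both genes mutant leaf array 3 was the nearest to Col, at 2.17 and 2.47 against 3.64 and 4.31 for the next mutant array. AT1G30700 belonged to no class, as its root effect of -0.53 ± 0.47 lay past the bound of 0.5. Its leaf arrays overlapped, since mutant array 3 lay at -2.64 and Col array 3 at -2.15, and its call was lost in 8 of the 12 refits, leaving out array 1 or 2 of any group. These genes are known here only by locus code, so no role is given.

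Genes lower in mutant leaves alone included regulators of stomatal development and genes of dividing cells. SPCH, the transcription factor that starts the stomatal lineage, lay at 2.1, 2.42 and 2.09 in Col leaves and at 0.55, 0.41 and 1.35 in mutant leaves. In roots it lay at -0.4, -0.73 and -0.21 in Col and at -0.55, -0.26 and -0.58 in the mutant. Every mutant leaf array was below every Col leaf array, mutant array 3 being the nearest to Col, and the root groups overlapped. The leaf effect was -1.43 ± 0.22 (2.7-fold lower, adjusted p = 0.000505), and the leaf-root difference was -1.42 ± 0.3 (adjusted p = 0.0116).

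EPFL9 (STOMAGEN), a secreted peptide that promotes stomata, lay at 3.23, 3.56 and 3.43 in Col leaves and 1.69, 2.35 and 2.42 in mutant leaves, with a leaf-root difference of -1.18 ± 0.26 (adjusted p = 0.0135). Its 6 root arrays lay between -1.98 and -1.52, with the groups overlapping. FAMA, which acts late in the same lineage, fell by 0.67 ± 0.19 in leaves, with overlapping arrays, and its difference was -0.68 ± 0.27 (adjusted p = 0.112). These were the 3 measured genes of 15 in a list of stomatal regulators made after the values had been seen. All 3 fell in leaves, against 11.9% of all probe sets. None was called in roots, which for 3 genes is near the 2.5% of all probe sets called there. Without leaf mutant array 3 the leaf-root difference was called negative for all 3.

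Some genes of dividing cells were also lower in mutant leaves. Over all probe sets 11.9% were lower in leaves, 2.5% were called in roots and 13.1% had a called leaf-root difference. The Aurora kinases AUR1, AUR2 and AUR3, the 3 measured members of the list of cyclins and mitotic kinases, all fell in mutant leaves. None was called in roots, which for 3 genes is near the share of all probe sets. AUR2 lay at -0.16, -0.03 and -0.09 in Col leaves and -1.25, -0.86 and -0.8 in mutant leaves, with a difference of -1.01 ± 0.17 (adjusted p = 0.00383). Its root values were 0.2, 0.03 and 0.11 in Col and 0.29, 0.25 and 0.18 in the mutant, with no separation of the genotypes. AUR1 had a difference of -0.59 ± 0.18 (adjusted p = 0.044) that was called in 2 of the 12 refits, those without an array numbered 3 of the root Col or the leaf mutant group. It was not called after quantile normalization (adjusted p = 0.0588). For AUR3 the difference was -0.56 ± 0.19 (adjusted p = 0.0719). Without root mutant array 3 the difference was called for 1 of the 3 kinases. In a list of 5 replication and topoisomerase genes made after the values were seen, 3 fell in leaves, and POLA3 and POLD3 had leaf effects of -0.07 each. TOPII, a DNA topoisomerase that untangles chromosomes, fell by 1.06 ± 0.16 in leaves (difference -1.0 ± 0.22). TOP3A had a difference of -0.93 ± 0.2. The replication factor PRL had a leaf effect of -0.52 ± 0.17 and a root effect of 0.48 ± 0.17 (difference -1.0 ± 0.24), a call lost without root Col array 2 or root mutant array 1. Of 3 kinesins, in a list made likewise, KINESIN-12B had a difference of -1.17 ± 0.19 and KICP-02 of -1.07 ± 0.2, and KINESIN-13A had a leaf effect of -0.2 that was not called. The histone H2B gene HTB1 had a difference of -1.04 ± 0.18. Of 5 histone genes 1 fell in leaves, which is near the share of all probe sets, and 2 had a called difference. Without root mutant array 3 the latter were 3, with 2 higher in roots. TCP15, a transcription factor of leaf growth, fell by 1.02 ± 0.19 in leaves, and its difference of -0.89 ± 0.27 (adjusted p = 0.047) was called only in the refits without root Col array 3 or leaf mutant array 3, and not after quantile normalization (adjusted p = 0.0986).

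The largest leaf-limited fall was that of AT2G33850. It lay at 0.36, 0.74 and 0.28 in Col leaves and at -3.25, -2.09 and -2.09 in mutant leaves, a 7.68-fold difference. The 6 root arrays lay between -0.27 and 0.22, just below Col leaves, with the genotypes overlapping. Its leaf-root difference of -2.91 ± 0.37 (adjusted p = 0.00107) was the most negative of any named gene. CYP71B22, of the same P450 family as CYP71B36, lay at 3.33, 3.13 and 3.09 in Col leaves and at 1.56, 1.52 and 1.54 in mutant leaves, with a difference of -1.51 ± 0.17. Its roots overlapped between -1.5 and -0.98. Of 12 CYP71B genes, 4 were higher and 2 lower in leaves, against 13.1% and 11.9% of all probe sets, so the lower share was near that of all probe sets. None was called in roots, where 2.5% of all probe sets were. The leaf-root difference was called positive for 3 and negative for 1, against 6.75% and 6.31% of all probe sets. Without leaf mutant array 3 these were 5 and 1, and 5 genes were higher in leaves. MSRB6, a methionine sulfoxide reductase, fell by 1.69 ± 0.22 in leaves (difference -1.77 ± 0.31), and LTI30, a dehydrin of cold and drought responses, by 1.06 ± 0.12 (difference -0.82 ± 0.17).

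**Figure D3:**
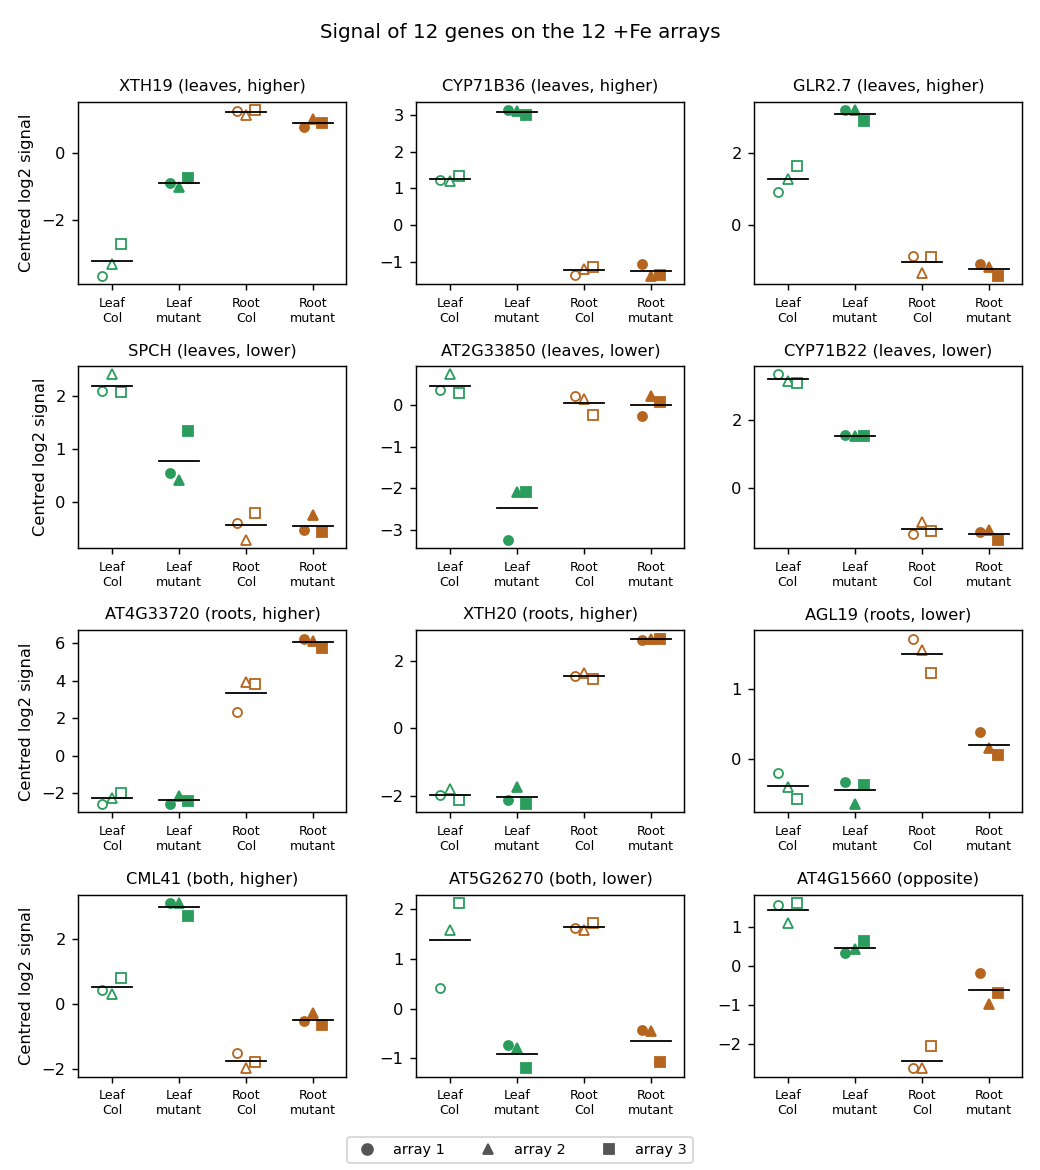
Centred log2 signal (y axis, own scale per gene) of 12 genes on the 12 +Fe arrays, by group, with the mean as a horizontal line; circles, triangles and squares are arrays 1, 2 and 3, open for Col and filled for the mutant. XTH19, CYP71B36 and GLR2.7 are higher and SPCH, AT2G33850 and CYP71B22 lower in mutant leaves only, AT4G33720, XTH20 and AGL19 differ in roots only, CML41 and AT5G26270 differ in both organs, and AT4G15660 is lower in mutant leaves and higher in mutant roots.

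The root-limited class was small. AT4G33720, of the family of PR-1-like secreted proteins, lay at 2.36, 3.94 and 3.81 in Col roots and at 6.26, 6.14 and 5.77 in mutant roots. In leaves it lay at -2.58, -2.24 and -2.0 in Col and at -2.56, -2.16 and -2.39 in the mutant. The root groups were far apart and the leaf groups overlapped. The root effect was 2.69 ± 0.32 (6.44-fold, adjusted p = 0.000619), the leaf effect -0.1 ± 0.32, and the leaf-root difference -2.79 ± 0.45 (adjusted p = 0.00324), or -1.8 after quantile normalization.

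XTH20, of the same enzyme family as XTH19, showed the reverse tissue pattern. It lay at 1.55, 1.65 and 1.46 in Col roots and at 2.62, 2.67 and 2.65 in mutant roots, while its 6 leaf arrays lay between -2.25 and -1.75. The leaf-root difference was -1.16 ± 0.19 (adjusted p = 0.00297). UBC29, a ubiquitin-conjugating enzyme, lay at 0.08, 0.17 and 0.36 in Col roots and 1.21, 1.4 and 0.85 in mutant roots (root effect 0.95 ± 0.14). Its leaf effect was -0.13 ± 0.14 with overlapping arrays, and the difference was -1.08 ± 0.19. The sugar transporter SWEET14 (0.77 ± 0.16) and the glycosyltransferase UGT71C3 (0.78 ± 0.15) also rose in mutant roots, with differences of -1.09 ± 0.22 and -1.1 ± 0.21. BCAT4, an enzyme of glucosinolate synthesis, rose by 0.93 ± 0.16 in roots, and its difference of -0.76 ± 0.22 was called in 4 of the 12 refits, those without root Col array 3, leaf Col array 1 or 2, or leaf mutant array 3.

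The 59 probe sets lower in mutant roots alone, 32 of them named, included AGL19, ATGSTF13, EXPB2, OCT1 and ATPMEPCRD. AGL19, a MADS-box transcription factor gene, lay at 1.73, 1.57 and 1.23 in Col roots and at 0.39, 0.15 and 0.06 in mutant roots. Its 6 leaf arrays lay between -0.65 and -0.2 with the groups overlapping, and mutant roots came near to that level. The root effect was -1.31 ± 0.15 (2.47-fold lower) and the difference 1.25 ± 0.21 (adjusted p = 0.00398). ATGSTF13, a glutathione transferase, lay at 2.25, 2.35 and 2.51 in Col roots and 1.22, 1.09 and 1.26 in mutant roots (difference 1.32 ± 0.19, adjusted p = 0.00145). The wall-loosening EXPB2 lay at 2.32, 2.08 and 2.13 in Col roots and at 0.77, 0.78 and 1.29 in mutant roots (difference 1.44 ± 0.22, adjusted p = 0.00194). The genotypes were separate in roots and overlapped in leaves for both genes. OCT1, a carnitine transporter, had a root effect of -1.28 ± 0.23 and a difference of 1.49 ± 0.33. ATPMEPCRD, a pectin methylesterase, had a root effect of -0.87 ± 0.12 and a difference of 0.92 ± 0.18. These root results stand beside the lower 5′ to 3′ control difference of mutant roots given above.

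Shared effects included genes linked to calcium (CML41) and ubiquitin signalling (RING1), the latter named after values were seen. CML41, a calmodulin-like protein, lay at 0.42, 0.29 and 0.8 in Col leaves and at 3.09, 3.1 and 2.7 in mutant leaves. In roots it lay at -1.51, -1.98 and -1.79 in Col and at -0.53, -0.29 and -0.65 in the mutant. The genotypes were separate in both organs, with a leaf effect of 2.46 ± 0.17 (adjusted p = 3.08e-06) and a root effect of 1.27 ± 0.17 (adjusted p = 0.00126). The leaf effect was the larger, by 1.19 ± 0.24 (adjusted p = 0.00829), which makes it 1 of the 16 shared probe sets with a called difference.

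AT3G47480 rose by 1.89 ± 0.21 in leaves and by 1.63 ± 0.21 in roots, and AT5G53820 by 1.52 ± 0.15 and 1.6 ± 0.15. AT1G65500 lay at -0.28, 0.21 and 0.65 in Col leaves and 2.63, 2.62 and 1.66 in mutant leaves, and at -3.33, -2.72 and -2.68 in Col roots and 0.07, -0.07 and -0.39 in mutant roots. Its effects were 2.11 ± 0.28 and 2.78 ± 0.28, and the leaf-root difference of -0.67 ± 0.4 was not called (adjusted p = 0.281). AT5G06730, of the peroxidase family, rose by 1.29 ± 0.22 and 1.72 ± 0.22. RING1, a RING-finger ubiquitin ligase, rose by 1.61 ± 0.19 in leaves and 0.82 ± 0.19 in roots, with a difference of 0.79 ± 0.26 (adjusted p = 0.0638). Its root call was lost without root Col array 1 or 3, root mutant array 1 or 2, leaf Col array 1 or leaf mutant array 2, and its difference was called without root Col array 3 or leaf mutant array 3. A difference that missed the threshold does not show equal effects in both organs.

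AT5G26270 fell to a like extent in both organs. It lay at 0.42, 1.58 and 2.13 in Col leaves and at -0.73, -0.79 and -1.2 in mutant leaves, and at 1.63, 1.59 and 1.72 in Col roots and -0.42, -0.44 and -1.08 in mutant roots. Its effects were -2.28 ± 0.32 and -2.29 ± 0.32, and the difference was 0.01 ± 0.46. GH9B13, of the endoglucanase family, fell by 1.89 ± 0.3 in leaves and by 1.33 ± 0.3 in roots. Its root call was lost in 6 of the 12 refits, without any 1 of the root Col arrays, root mutant array 1 or 2, or leaf Col array 1, and its difference of -0.56 ± 0.43 was called without leaf mutant array 3. CHLM, a methyltransferase of chlorophyll synthesis, fell by 0.42 ± 0.13 and 0.61 ± 0.13. In each organ the call of CHLM was lost in 5 of the 12 refits, without any 1 of that organ's Col arrays or its mutant array 1 or 2, and the leaf call was also lost after quantile normalization (adjusted p = 0.161). The largest falls in roots were those of 2 probe sets with no gene named here, given after their values were seen. The first lay at 2.47, 2.34 and 2.12 in Col roots and at -1.39, -0.95 and -1.69 in mutant roots, and it fell by 3.65 ± 0.2 in roots and by 2.4 ± 0.2 in leaves (difference 1.26 ± 0.28, adjusted p = 0.0129). The other fell by 2.91 ± 0.15 in roots and by 0.75 ± 0.15 in leaves (difference 2.16 ± 0.21, adjusted p = 0.00022). The genotypes were separate in both organs for each of them. Whether either measures a mutated gene was not tested.

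Opposite effects were called for 3 glutaredoxin family genes with neighbouring locus codes. They do not stand for the family. In a separate list of 5 glutaredoxins made after the values were seen, 3 rose and none fell in leaves. Over all probe sets 13.1% rose and 11.9% fell there. None of the 5 was called in roots, where 2.5% of all probe sets were, and 1 had a called negative leaf-root difference. AT4G15660 lay at 1.55, 1.09 and 1.61 in Col leaves and at 0.33, 0.44 and 0.64 in mutant leaves. In roots it lay at -2.59, -2.61 and -2.05 in Col and at -0.19, -0.98 and -0.7 in the mutant. The genotypes were separate in both organs, and the mutant reduced the distance between leaves and roots. The leaf effect was -0.95 ± 0.21 (adjusted p = 0.00554), the root effect 1.79 ± 0.21 (adjusted p = 0.000498) and the difference -2.74 ± 0.3 (adjusted p = 0.000344).

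AT4G15700 followed with -0.49 ± 0.11 in leaves, a call lost after quantile normalization (adjusted p = 0.0585), and 1.15 ± 0.11 in roots, and AT4G15690 with -0.62 ± 0.21 and 1.15 ± 0.21. These genes are close relatives, so their probe sets may share signal and are not independent. For AT4G15690 the leaf call was weak (adjusted p = 0.0473), its leaf arrays overlapped, and it was kept in 4 of the 12 refits, those without root Col array 2 or 3, leaf Col array 1 or leaf mutant array 3, although the difference of -1.77 ± 0.3 held in all of them. Its leaf effect was -0.41 without leaf mutant array 1, and the leaf call was lost after quantile normalization (-0.47, adjusted p = 0.112). Its root call was lost without root Col array 1 or 2 or root mutant array 1. Outside this run, AT3G27950 lay at -0.36, -0.56 and -0.64 in Col leaves and -0.78, -0.92 and -1.1 in mutant leaves, and at 0.36, 0.62 and 0.56 in Col roots and 2.27, 2.09 and 2.34 in mutant roots. Its root effect was 1.72 ± 0.12 and its leaf effect -0.41 ± 0.12, the latter lost without leaf Col array 1 or 2 or leaf mutant array 2 or 3. AT4G11190 showed the same signs, with -0.8 ± 0.16 in leaves and 1.01 ± 0.16 in roots, and these calls held in each of the 12 refits and after quantile normalization (adjusted p = 0.00152 and 0.00233).

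The reverse pattern, higher in mutant leaves and lower in mutant roots, was called for 8 probe sets, 4 of them named. AT3G01175 lay at -0.72, -0.88 and -0.94 in Col leaves and 0.61, 0.01 and 0.15 in mutant leaves, and at 1.25, 1.39 and 1.01 in Col roots and 0.22, 0.36 and 0.68 in mutant roots. Its effects were 1.1 ± 0.17 and -0.8 ± 0.17, with a difference of 1.9 ± 0.24 (adjusted p = 0.000914). The root call was lost without array 1 or 2 of either root group. With all 12 arrays, late genes of anthocyanin synthesis came near to the same pattern without reaching it. UGT75C1, an anthocyanin glucosyltransferase, rose by 0.63 ± 0.19 in leaves and had a root effect of -0.63 ± 0.19 (adjusted p = 0.0999), with a called difference of 1.26 ± 0.27. UF3GT had effects of 0.61 ± 0.17 and -0.45 ± 0.17 and a difference of 1.06 ± 0.25. DFR, dihydroflavonol reductase, had effects of 1.11 ± 0.39 and -0.8 ± 0.39, neither of them called, and a difference of 1.91 ± 0.55 (adjusted p = 0.0381). In all 3 genes mutant leaf array 3 lay nearest to Col, and the DFR difference was called in 3 of the 12 refits, those without root Col array 3, leaf Col array 2 or leaf mutant array 3. Without leaf mutant array 3, all 3 genes were called higher in leaves and 2 of them lower in roots, so these 2 reached the pattern. Without root mutant array 3, none was called in roots and 2 differences were called.

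Several families held genes of more than 1 class. Of 23 cell wall expansion genes, 4 rose and 4 fell in mutant leaves, 1 rose and 2 fell in roots, and the leaf-root difference was called for 6. The leaf shares were near the 13.1% and 11.9% of all probe sets. In roots 1.4% of all probe sets rose and 1.1% fell. The leaf-root difference was called for 13.1% of all probe sets, a share that applies to each list in this paragraph. XTH19, XTH18 and XTH33 were leaf-limited and XTH20 root-limited, and the expansins split likewise, with EXPA8 lower in leaves (-0.87 ± 0.15) and EXPB2 lower in roots (-1.23 ± 0.15). Without leaf mutant array 3, 6 fell in leaves, 3 fell in roots and the difference was called for 9 of the 23. Without root mutant array 3 it was called for 5, and 3 fell in leaves. The call of XTH18 (1.57 ± 0.45) held in 2 of the 12 refits only, those without leaf Col array 3 or leaf mutant array 3, and was lost after quantile normalization (adjusted p = 0.0517). Of 13 glutathione transferases, the difference was called for ATGSTF13, GSTU16 (0.95 ± 0.24) and GSTU23 (-0.89 ± 0.23), and the calls of the last 2 held in 4 of the 12 refits, lost without array 1 or 2 of either root group or of the mutant leaves, leaf Col array 1, and leaf Col array 2 for GSTU16 or 3 for GSTU23. Among 5 pectin methylesterases, a list made after the values were seen, PMEPCRF (0.95 ± 0.2) and PME61 (-1.35 ± 0.28) had called differences through their leaf effects and ATPMEPCRD through its root effect. ATPMEPCRB had the largest difference of the 5 (1.77 ± 0.53, adjusted p = 0.045), which was called in 3 of the 12 refits, those without root Col array 3, leaf Col array 3 or leaf mutant array 3, and not after quantile normalization (adjusted p = 0.061). Of 13 SWEET and other sugar transporters, the difference was called negative for SWEET13, SWEET14 and SWEET16, against 6.31% of all probe sets. It was called positive for none, which for 13 genes is near the 6.75% of all probe sets. In leaves 3 fell, or 5 without leaf mutant array 3 and 4 without root mutant array 3. SWEET13 lay at -0.78, -0.4 and -0.35 in Col leaves and -0.84, -0.91 and -1.94 in mutant leaves, and at -0.04, 0.11 and 0.06 in Col roots and 0.84, 0.73 and 0.71 in mutant roots. The genotypes were separate in both organs in opposite directions, but the root effect of 0.72 ± 0.23 was not called (adjusted p = 0.118), and the difference was -1.44 ± 0.32 (adjusted p = 0.0136).

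**Figure D4:**
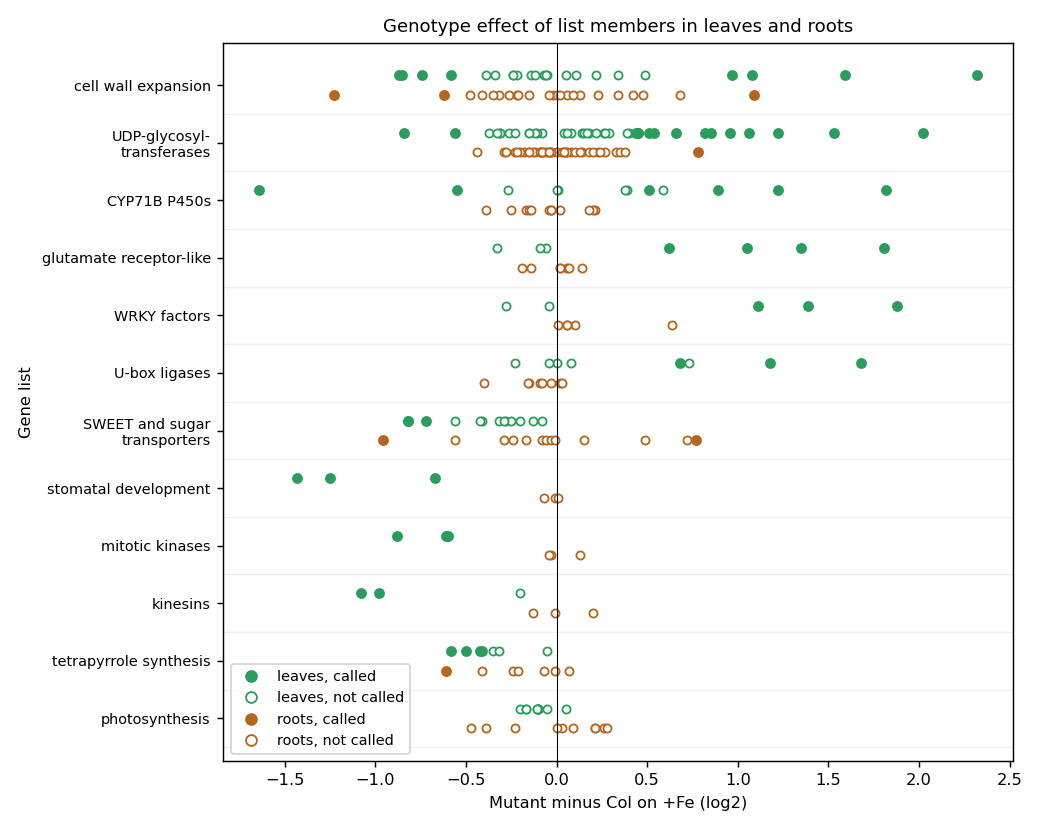
Genotype effect (mutant minus Col on +Fe, log2, x axis) of the measured members of 12 gene lists, in leaves (green, upper row of each list) and roots (brown, lower row); filled points passed the test. Glutamate receptor-like, WRKY and U-box genes reach past 1 in leaves and have no filled root point, stomatal, mitotic kinase and kinesin genes have filled points below 0 in leaves and none in roots, and no photosynthesis gene is filled in either organ. With 2.5% of all probe sets called in roots, lists of this size need hold no filled root point.

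In the lists of tetrapyrrole, cold and drought, and iron genes given below, calls in leaves or roots mostly came without a called leaf-root difference. None of the 10 photosynthesis genes was called in leaves, in roots or for the leaf-root difference, with list medians of -0.1 in leaves and 0.06 in roots, against -0.01 in both for all probe sets. Of all probe sets 25% were called in leaves, 2.5% in roots and 13.1% for the difference. A list of 10 genes need hold no root call, and these 10 are a part of 53 listed. Of the 10, 1 was called lower in roots without leaf mutant array 3, and without root mutant array 3 these were 2, with 1 called difference. Of 7 genes of tetrapyrrole synthesis, 4 fell in leaves (CHLM, CHLI2, HEME1 and HEME2), against 11.9% of all probe sets, and CHLM fell in roots, against 1.1%. Without leaf or root mutant array 3, 5 fell in leaves. No leaf-root difference was called in this list, against 1 without leaf mutant array 3. Of 5 cold and drought genes, LTI30, COR15A, COR15B and COR47 fell in leaves and LEA4-5 fell in roots (-0.98 ± 0.18), and the difference was called for LTI30 alone, and for 1 more gene without root mutant array 3. The shares of all probe sets given for the tetrapyrrole genes apply here too. The list of iron acquisition and transport genes held 0 of 6 called differences (2 without leaf mutant array 3). The list of iron regulators held 1 among 11 probe sets of 10 genes (0 without root mutant array 3). With 13.1% of all probe sets called, lists of this size do not show that iron genes differ from other genes. F6'H1, an enzyme of coumarin synthesis, rose by 1.09 ± 0.3 in mutant leaves, with mutant array 3 at -2.53 within the range of the Col arrays. The called regulator was BTSL2, a ubiquitin ligase that restrains the iron response in roots. It rose by 0.67 ± 0.15 in mutant leaves and had a root effect of -0.04 ± 0.15, and its difference of 0.71 ± 0.21 (adjusted p = 0.0434) was called in 3 of the 12 refits, those without root Col array 3, leaf Col array 1 or leaf mutant array 3, and not after quantile normalization (0.52, adjusted p = 0.137). IMA1, an iron-responsive peptide, had a leaf effect of -0.23 ± 0.38, a root effect of 1.0 ± 0.38 and a difference of -1.23 ± 0.53, none of them called.

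The classes were set against the difference between Col leaves and Col roots on -Fe, which shares no array with the classes. That medium holds an iron chelator, so the difference need not be that of plants on +Fe. MTP8 had means of -0.24 in Col leaves and 0.34 in Col roots on +Fe, but a difference of -4.63 on -Fe. Over all probe sets the median of the -Fe difference was -0.08, with 17.3% higher in leaves and 17.1% higher in roots by more than 1 log2 unit. Probe sets lower in mutant leaves alone had a median of 0.7, and 45% of them were higher in leaves by more than 1. SPCH, EPFL9 and CYP71B22 are examples, at 2.43, 4.72 and 4.2. Probe sets higher in mutant leaves alone had a median of -0.41, with 31% higher in roots and 18.7% higher in leaves by more than 1, so this group held genes of either organ. XTH19 and WRKY6 were higher in Col roots (-3.35 and -1.32), while GLR2.7 and CYP71B36 were higher in Col leaves (2.84 and 2.45). In the root-limited class, the 59 probe sets lower in mutant roots had a median of -0.91 and 45.8% were higher in roots by more than 1, and the 103 higher in mutant roots had a median of -0.18. A fall can be called only in an organ with signal to lose. The lean of both lower groups toward their own organ may thus follow from the selection, and this was not tested. For AT2G33850, with the largest leaf-limited fall, the organs of Col differed by 0.37.

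On -Fe the tissue dependence was examined again in the other 12 arrays. There, 4781 probe sets differed between the genotypes in leaves (26.8%), 171 in roots (0.96%), and 1738 had a called leaf-root difference (9.76%), positive in 3.8% and negative in 5.96%. Of the 1762 leaf-limited probe sets from +Fe, the leaf-root difference had the same sign on -Fe in 1675 (95.1%) and was called in 461 (26.2%). For the 162 root-limited probe sets these were 147 (90.7%) and 45 (27.8%). The same sign was found in 69.2% of all probe sets. The 22 opposite probe sets kept the sign of the leaf-root difference in 21, with 7 called. Of the 131 shared probe sets, 129 kept the sign in leaves and 129 in roots, with 99 and 36 called. Over all probe sets the leaf effect kept its sign in 77.1% and the root effect in 67.2%. The median leaf-root difference of leaf-limited probe sets moved from 0.88 to 0.53 in those higher and from -0.83 to -0.57 in those lower in mutant leaves. These probe sets were selected on their +Fe values.

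Array 3 of the -Fe mutant leaves also stood apart (r = 0.852 and 0.872 with arrays 1 and 2, which correlated at 0.956). Without it the called differences among leaf-limited probe sets rose from 461 to 1151, and among root-limited ones from 45 to 67. Without root Col array 1, root mutant array 1, 2 or 3, or leaf Col array 2 of the -Fe arrays, the first count was 240, 238, 247, 249 and 281. The second lay between 26 and 38 without any other -Fe array, at 26 without root mutant array 2 and at 28 without root mutant array 1 or leaf mutant array 1. A fit of all 24 arrays called no probe set for a change of the leaf-root difference between the media. In that limma fit 0 of 17810 passed after adjustment (smallest adjusted p = 0.147), and 1826 (10.3%) had an unadjusted p under 0.05.

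For single genes the leaf-root difference was called on -Fe in some and not in others. No change between the media was called for any of them, and these fits include -Fe mutant leaf array 3. AT2G33850 had a leaf-root difference of -2.75 on -Fe (adjusted p = 0.00213), CYP71B36 of 1.64 (adjusted p = 0.000849), SPCH of -1.44 (adjusted p = 0.0285) and XTH19 of 1.47 (adjusted p = 0.00555). In roots, AT4G33720 repeated at -2.94 (adjusted p = 0.00189), AGL19 at 1.13 (adjusted p = 0.00446) and ATGSTF13 at 1.77 (adjusted p = 0.00104). The value on -Fe was not called for GLR2.7 (1.41, adjusted p = 0.0689), EPFL9 (-0.62, adjusted p = 0.317) or XTH20 (-0.69, adjusted p = 0.126). The glutaredoxin gene AT4G15660, at -2.74 on +Fe, had -0.75 on -Fe (adjusted p = 0.352), and UBC29 had -0.07 (adjusted p = 0.827). AT1G65500, shared on +Fe, had a called difference of 1.62 on -Fe (adjusted p = 0.0171), with a leaf effect of 1.9 and a root effect of 0.28.

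**Figure D5:**
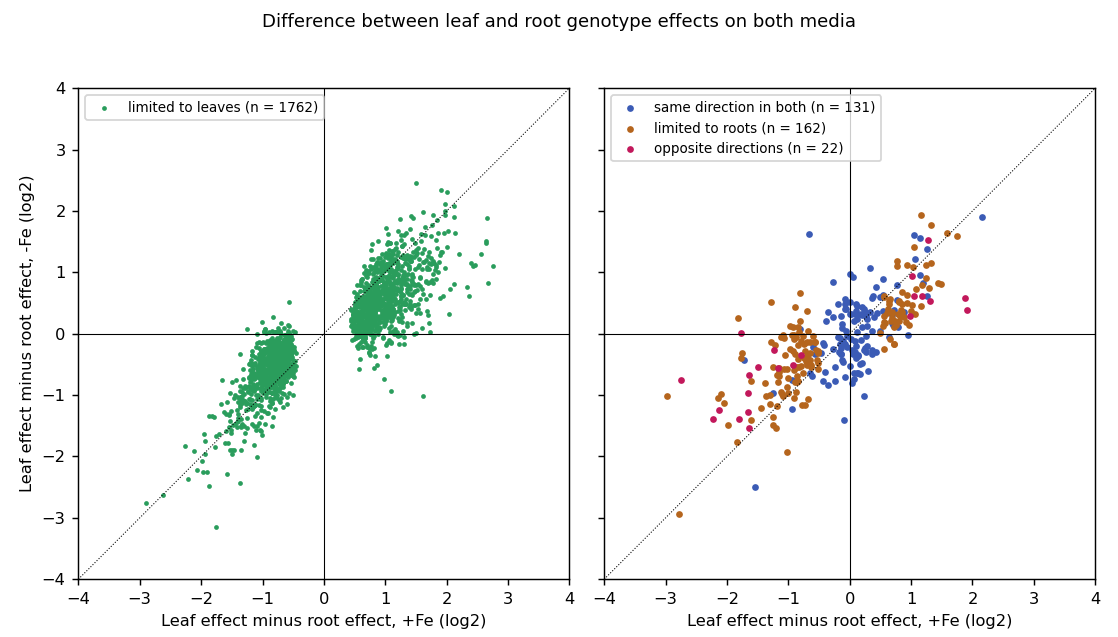
Leaf effect minus root effect on +Fe (x axis) and on -Fe (y axis), log2, for the leaf-limited class (left) and the shared, root-limited and opposite classes (right), which were defined on +Fe alone; each point is a probe set and the dotted line marks equal values. Of the 1762 leaf-limited probe sets 1675 keep their sign, and most lie nearer to 0 on -Fe than on +Fe.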

How the data were processed

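RNA of 24 samples was hybridised to 1-colour ATH1 arrays, and 12 arrays (4 groups of 3) entered the fit. The deposited table holds log2 values summarised with RMA, per the submitters' processing notes, whose version is not given in the sources used here. Each of the 17854 probe sets has a median of 0 over the 24 arrays (within 1e-05), so the table was centred by probe set before it was deposited. Values ran from -5.76 to 7.86. No scanner intensities were used, so signal over background is unknown, and the number of arrays limits the precision.

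After 44 control probe sets were left out, 17810 were fitted with limma (1 mean per group, moderated variances, 8 residual degrees of freedom), and p-values were adjusted by Benjamini-Hochberg over all of them. The same model was fitted to the 12 -Fe arrays, and 1 model to all 24 for the change between media. The fit was tested on simulated data. Of the probe sets tested, 9869 carry 1 gene name in the platform annotation, 353 several and 7588 none, and 9822 of the first were matched to TAIR10.1 names. Where a gene has several probe sets, each was kept apart in calls and counts, and list medians used their mean per array.

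Genes were named as the most extreme of each class or direction among probe sets with 1 gene name, or as members of the 28 lists written with the design. Further genes with a symbol were added after values were seen, as were 10 further lists. These genes were the most extreme among called leaf-root differences of any class, and all those of the shared and root-limited classes. Of all lists, 2 had no measured gene. The others were measured in part, so list counts describe the measured members only. Examples are U-box ligases (8 of 22), cyclins and mitotic kinases (3 of 35), replication genes (5 of 28) and kinesins (3 of 13). The classes, members and lists were chosen with earlier results of these data known. Alternatives covered scaling, weights, filters, thresholds, the arrays fitted and single arrays left out. Samples with the same replicate number were checked for a shared deviation from their group means. Across 4 pairs of groups (Col and mutant leaves, Col and mutant roots, both organs of Col, both organs of the mutant) the correlations ran from -0.288 to 0.128. Both organs of the mutant gave 0.0886, 0.0695 and 0.128. Such weak correlations, from 3 arrays a group, cannot decide whether samples of the same number came from the same plants. The main fit did not pair samples, and a block within genotype gave 1656 called leaf-root differences against 2326. The tools were R 4.3.3, limma 3.58.1, Python 3.11.15, pandas 2.3.3, numpy 2.4.6 and matplotlib 3.10.9.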

Additional observations from a re-analysis of the deposited data

Results flagged for a closer look

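Genotype effects that differed between leaves and roots, by the test of the difference itself in the limma fit, numbered 2326. Among named genes, the leaf effect exceeded the root effect by the largest amounts in AT3G01830 (2.75 on the log2 scale), AT3G48650 (2.67), XTH19 (2.64), AT1G57630 (2.36), AT1G30700 (2.35), AT2G32140 (2.32), AT1G26420 (2.19), AT1G80130 (2.13), AT1G13470 (2.11) and AT2G44240 (2.04). It lay furthest below the root effect in AT2G33850 (-2.91), AT4G33720 (-2.79), AT4G15660 (-2.74), AT4G29030 (-2.26), AT5G22555 (-2.14), AT3G27950 (-2.13), AT5G66815 (-2.1), AT3G62950 (-2.07), AT4G29020 (-2.04) and AT1G26250 (-1.99). Of these 20 genes, 17 kept their call in each of the 12 refits that left out 1 array, and the others were AT3G01830, AT3G48650 and AT1G30700, whose arrays are named above.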

How the results depend on the processing

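Counts are of probe sets, given in the order of called leaf-root differences, leaf calls, root calls, shared, opposite, leaf-limited and root-limited classes, against 2326, 4454, 446, 131, 22, 1762 and 162. With array weights they were 7579, 8323, 5461, 1397, 1033, 4066 and 1712, and array 3 of the mutant leaves had the lowest weight (0.232). At an adjusted p under 0.01 they were 562, 2226, 118, 35, 3, 442 and 38. With a test against a log2 effect of 0.5 they were 99, 489, 40, 8, 0, 69 and 10. Without both mutant arrays of number 3, the differences were 4581, the root calls 1901 and the classes 490, 234, 3117 and 593. Leaving out 1 array gave ranges of 1155 to 4160, 2742 to 6051, 124 to 1034, 41 to 272, 5 to 91, 933 to 3276 and 50 to 395. In the -Fe arrays it gave 238 to 1151 called differences among leaf-limited and 26 to 67 among root-limited probe sets.

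Fits of the 6 arrays of each tissue gave 2809 leaf and 812 root calls. Fits of the 12 arrays of each tissue on both media gave 2557 and 1913, with 301 shared and 70 opposite. A fit of all 24 arrays gave 798 root calls, 46 opposite and 251 root-limited probe sets, and group weights gave 749 and 46 of the first and second. Quantile normalization gave 1002 root calls, 52 opposite, 1072 leaf-limited and 318 root-limited. Over the members of the 28 lists, 41 of 193 differences were called, 65 without leaf mutant array 3 and 37 without root mutant array 3. Where these values moved, the cause was not tested beyond the stricter thresholds and the arrays left out. With the replicate number as a block the 7 counts were 4277 in leaves, 371 in roots, 2061 differences, 115 shared, 21 opposite, 1598 leaf-limited and 132 root-limited, and the block within genotype gave 1656 differences. Of 139 called differences of named genes, 0 reversed under any alternative and 103 held in each of the 12 refits. The call was kept by 128 after quantile normalization and by 29 against a log2 effect of 0.5. Signal over background is unknown, so low signals cannot be marked, and 3 arrays a group leave the small classes imprecise.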
